A study of Mus musculus with 36 samples.

Results

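The type I interferon response was followed through 38 interferon-stimulated genes, picked by gene ID from a list of known members, in mouse bone marrow-derived macrophages on their way to osteoclasts. All 38 were found among the 24950 genes of the deposited table, and all 38 passed the filter on low values that left 11863 genes for testing. RNA-seq had been run on 36 libraries in 12 groups of 3, with 34510144 to 92548145 alignments per library (median 46799532), formed by 4 labelled Irf8 genotypes (gWT, gKO, cWT and cKO) and 3 days. Day 0 cells were macrophages (BMMs) kept in the growth factor M-CSF. Day 3 cells (pre-osteoclasts) and day 6 cells (osteoclasts, which resorb bone) were grown with M-CSF at 20 ng/ml together with 40 ng/ml of RANKL, which sets off osteoclast formation. All mice were C57BL/6. What the letters g and c stand for, the alleles, any Cre driver, the age of the mice and any pooling of marrow are not stated by the labels or headers. Nothing states that the 3 libraries of a group are separate mice or cultures, so p-values measure the spread between these libraries, which may be technical.

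Type I interferons are secreted proteins that bind a receptor built from the products of Ifnar1 and Ifnar2. The receptor activates the kinases JAK1 and TYK2, and these phosphorylate STAT2, which joins IRF9 in a complex that binds interferon-stimulated response elements in the promoters of antiviral genes. Macrophages keep a low tonic activity of this loop, in which IRF7 raises further interferon production and USP18 lowers signalling at the receptor. Interferon is a known brake on osteoclast formation by RANKL. IRF8, the factor whose gene the labels name as altered, belongs to the same family as IRF7 and IRF9 and is known to restrain osteoclast formation.

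The response element contains GAAA repeats spaced by a pair of bases. RefSeq promoters (build GRCm38.p6, 250 bases before to 50 bases after the gene start) were at hand for 27 of the 38 genes, matched by symbol. A core of the letters GAAANNGAAA, read on either strand (TTTCNNTTTC on the other), was present in 13 of these 27 (48.1%), against 3.99% of 27025 genes and 3.44% of 32851 promoters in the same table. The 13 were Bst2, Ddx58, Eif2ak2, Ifih1, Ifit1, Ifit3, Ifitm3, Isg15, Oas1a, Oas3, Rsad2, Stat2 and Trim30a. A match is a run of letters and not a shown binding site. A few of these promoters are printed because their genes are given below with a value in every library; capitals mark the matches and each is written 5′ to 3′ on the strand of its gene.
Ifit3 (chr19:34583279-34583578, + strand): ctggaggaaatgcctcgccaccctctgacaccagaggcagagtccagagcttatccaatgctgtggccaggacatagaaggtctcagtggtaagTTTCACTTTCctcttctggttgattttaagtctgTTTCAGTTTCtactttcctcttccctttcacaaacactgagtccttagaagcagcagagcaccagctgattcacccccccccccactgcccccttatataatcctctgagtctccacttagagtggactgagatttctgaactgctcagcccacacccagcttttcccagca
Oas1a (chr5:120907476-120907775, - strand): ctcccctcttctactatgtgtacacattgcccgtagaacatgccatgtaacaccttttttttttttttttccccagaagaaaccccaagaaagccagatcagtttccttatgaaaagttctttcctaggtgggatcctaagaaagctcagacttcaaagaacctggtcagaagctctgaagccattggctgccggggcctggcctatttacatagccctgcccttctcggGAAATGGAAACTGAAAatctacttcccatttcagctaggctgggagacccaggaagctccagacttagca
Ddx58 (chr4:40239776-40240075, - strand): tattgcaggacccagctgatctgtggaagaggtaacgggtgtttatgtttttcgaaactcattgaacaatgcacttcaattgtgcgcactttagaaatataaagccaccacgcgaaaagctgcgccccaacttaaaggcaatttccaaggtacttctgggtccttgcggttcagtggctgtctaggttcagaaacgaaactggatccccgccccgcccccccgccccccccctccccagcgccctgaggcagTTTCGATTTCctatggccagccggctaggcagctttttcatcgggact
Stat2 (chr10:128270248-128270547, + strand): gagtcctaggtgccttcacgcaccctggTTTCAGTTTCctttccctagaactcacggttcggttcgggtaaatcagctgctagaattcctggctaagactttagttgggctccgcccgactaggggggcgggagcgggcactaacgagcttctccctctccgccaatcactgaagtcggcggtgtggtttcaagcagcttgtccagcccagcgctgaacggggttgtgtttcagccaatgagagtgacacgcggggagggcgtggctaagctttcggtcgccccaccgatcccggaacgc
Ifitm3 (chr7:141010695-141010994, - strand): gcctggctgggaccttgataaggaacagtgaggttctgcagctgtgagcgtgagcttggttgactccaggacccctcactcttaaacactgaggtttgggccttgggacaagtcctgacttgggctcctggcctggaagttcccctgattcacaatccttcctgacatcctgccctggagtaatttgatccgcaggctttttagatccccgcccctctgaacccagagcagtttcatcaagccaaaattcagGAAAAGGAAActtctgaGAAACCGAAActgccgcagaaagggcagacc
In the Ifit3 promoter the matches began 156 and 122 bases before the start, and the Stat2 match began 222 bases before it. The Oas1a matches overlapped each other and began 20 and 14 bases before the start. The Ddx58 and Ifitm3 matches lay past the start. On day 0 the median knockout difference in the g set, in log2(RPKM + 1), was -3.15 for the 13 genes with a match, -2.20 for the 14 without and -3.05 for the 11 genes with no promoter at hand. In the c set the same medians were -1.26, -0.29 and -1.22. These medians are descriptions and were not compared by a test.

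In several groups Irf8 RNA was not lower under the knockout label, and group names below mean the labels only. The alleles are not stated, and a knockout allele can still give RNA, so these levels do not show whether a label is right. Irf8 itself averaged 63.6 ± 2.61 RPKM (reads scaled to gene length and library size, mean ± SD, n = 3) in gWT and 57.4 ± 1.44 in gKO on day 0. On day 3 it was higher in gKO, 13.4 ± 1.16 against 5.46 ± 0.493, with a change of 1.16 ± 0.12 (SE, adjusted p = 3.2e-10) in log2(RPKM + 1), and on day 6 it averaged 4.97 ± 0.255 against 5.58 ± 0.749, with no call on day 0 or 6. In the c set it was higher in the libraries labelled cKO on day 0, 210.0 ± 4.18 against 59 ± 1.29, and on day 3, 65.4 ± 3.03 against 6.42 ± 0.982, and lower in them on day 6 alone, 11.2 ± 3.08 against 26.3 ± 1.88. The summed RPKM of 8 neutrophil genes, none of them at 0 in any group, also changed direction on day 6 in the c set. On day 0 it was 19325 to 24526 in gKO and 1848 to 2472 in gWT, and 20616 to 21890.0 in cKO and 3228 to 3310.2 in cWT. All 8 genes were higher in gKO than in gWT on each day and higher in cKO than in cWT on days 0 and 3, while all 8 were lower in the libraries labelled cKO on day 6, at 146 to 201 against 694 to 902. The file headers state that the annotation of day 6 cKO and cWT had been corrected. The headers name 3 combined data sets, and the first letter of a library's name (s, t or u) was read as its data set, which no header states. By that reading all g libraries came from 1 data set, and they had the Y-linked gene Ddx3y at group means of 11.3 to 16.1 RPKM. The c libraries carry the other letters, with Ddx3y at 0.00198 or below and Xist, which marks a second X chromosome, at 30.3 to 62.2. On days 0 and 3 all cWT libraries were of one data set and all cKO libraries of another, so genotype and data set cannot be told apart there. On day 6 the cKO libraries and 1 of 3 cWT libraries shared a data set.

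Other cell type markers also moved with genotype, and their part in the interferon gene differences was not tested. Of 7 macrophage genes 6 were lower in each knockout on day 0, without overlap, with sums of 629 to 683 RPKM in gKO, 2239 to 2314 in gWT, 782 to 817 in cKO and 1616 to 1738 in cWT. The exception, Cx3cr1, was higher in both. By means on day 3, 4 were higher and 3 lower in gKO, and all 7 were higher in cKO. Their sums were then 1593 to 1679 in gKO, 991 to 1082 in gWT, 1403 to 1483 in cKO and 787 to 967 in cWT. On day 6, 2 were higher and 5 lower in gKO, and 6 higher and 1 lower in cKO. All 8 osteoclast genes were higher in both knockouts on day 3, at sums of 22673 to 23733 in gKO against 3591 to 5449.5 in gWT and 17174 to 17445 in cKO against 5402 to 6737 in cWT. They were also all higher in cKO on day 6, at 25268 to 25897 against 15908 to 18003. Plasmacytoid dendritic cell genes, which mark a known source of type I interferon, summed to at most 32.7 RPKM over 6 genes in any library, with Klk1 at 0 in 6 of the 12 groups. The other genes had day 0 group means of 5.64 to 18.7 (Tcf4), 3.10 to 11.9 (Ly6d), 1.37 to 6.85 (Cox6a2), 1.91 to 3.90 (Siglech) and 0.0891 to 1.42 (Ccr9). By means on day 0, 1 of the 6 was higher and 5 lower in gKO, and 2 were higher and 4 lower in cKO. Stromal genes were highest in cWT on day 6, at 310.4 to 417 over 9 genes. All 6 B cell genes were higher in cKO on day 0, at sums of 25.6 to 65.4 against 7.55 to 9.51. By means 4 of them were higher and 2 lower in gKO on that day.

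Across the 12 groups the interferon genes were highest in gWT macrophages on day 0. There 36 of the 38 had their highest group mean, and for 35 all 3 libraries lay above all 33 others. The lowest mean fell in gKO osteoclasts on day 6 for 29 genes, and for 21 of them all 3 libraries lay below all 33 others. These counts were not made over all genes tested, so how unusual they are is not known. Averaged over the 38 genes, the level in log2(RPKM + 1) was 5.66 ± 0.12 (SD over 3 libraries) in gWT on day 0, 3.46 ± 0.14 on day 3 and 3.23 ± 0.07 on day 6. In gKO it was 2.57 ± 0.01, 2.18 ± 0.07 and 1.85 ± 0.07. The cWT libraries had 3.46 ± 0.08, 3.82 ± 0.29 and 2.78 ± 0.01, and those labelled cKO had 2.47 ± 0.03, 3.39 ± 0.22 and 3.36 ± 0.09. On day 0 gKO and cKO thus stood close together, while gWT stood far above cWT. The wild-type groups were not tested against each other, since sex-linked genes and data set separate all g from all c libraries. The 2 exceptions to the gWT peak were Samd9l, highest in cKO on day 3, and Tor3a, highest in cKO on day 6.

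**Figure D1:**
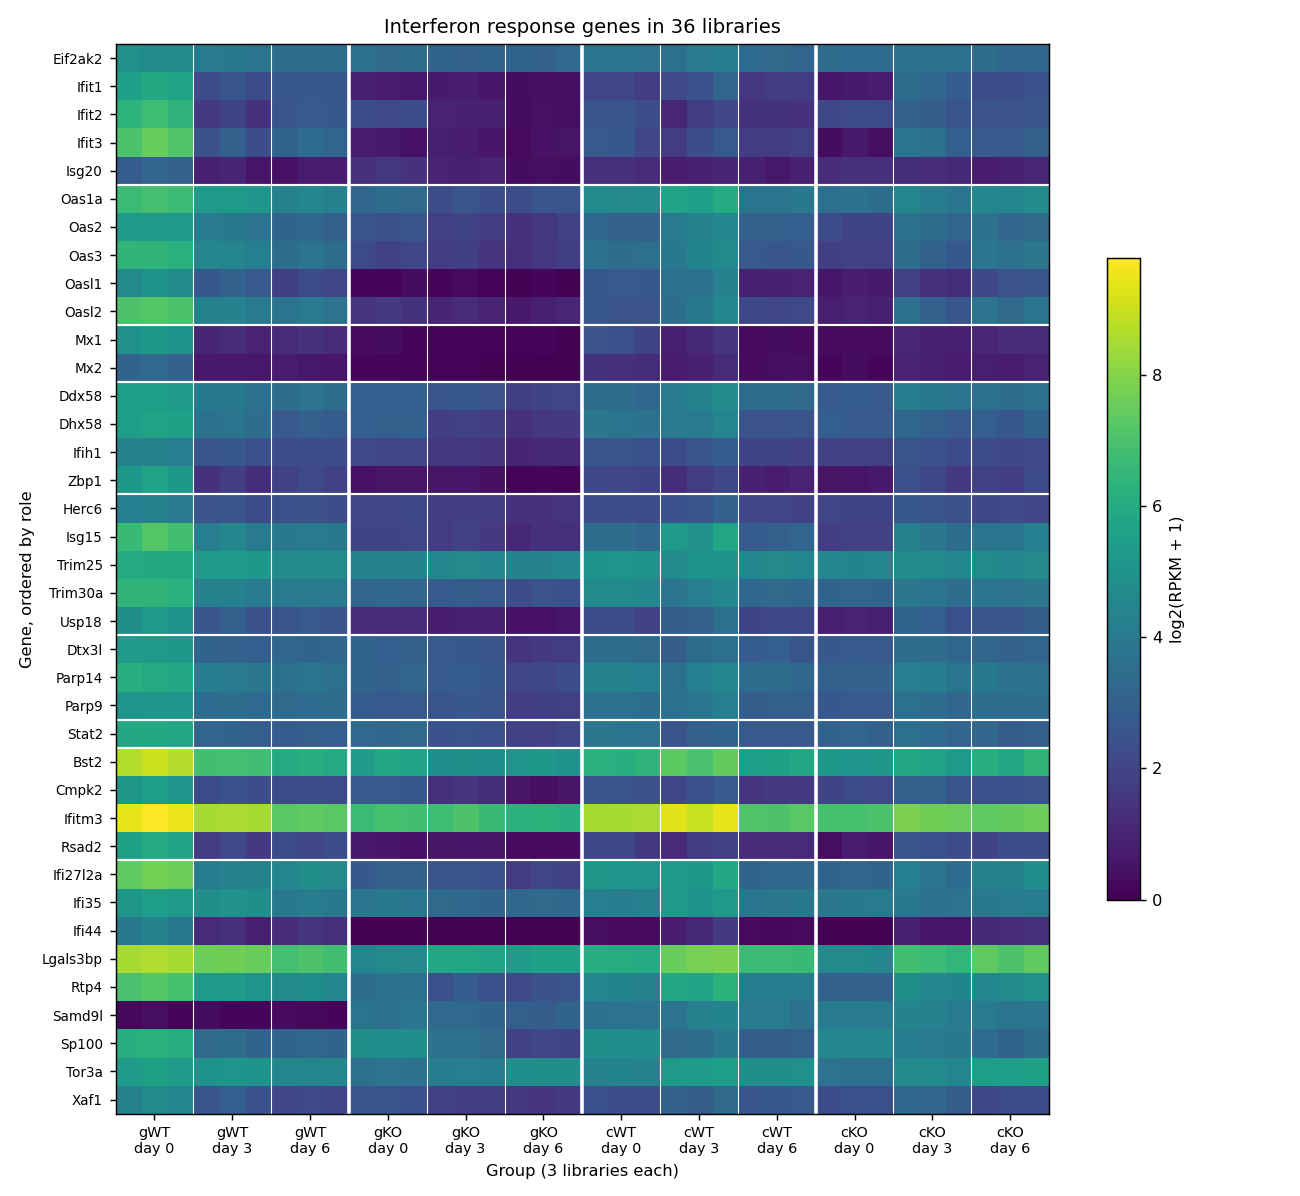
Level of each of the 38 interferon response genes (y axis, ordered by role, roles divided by white lines) in each of the 36 libraries (x axis, 3 columns per group), as log2(RPKM + 1) from dark (0) to bright. The brightest block is gWT on day 0, where 36 genes had their highest mean, and the Samd9l line is dark in all 9 gWT libraries alone.

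**Figure D2:**
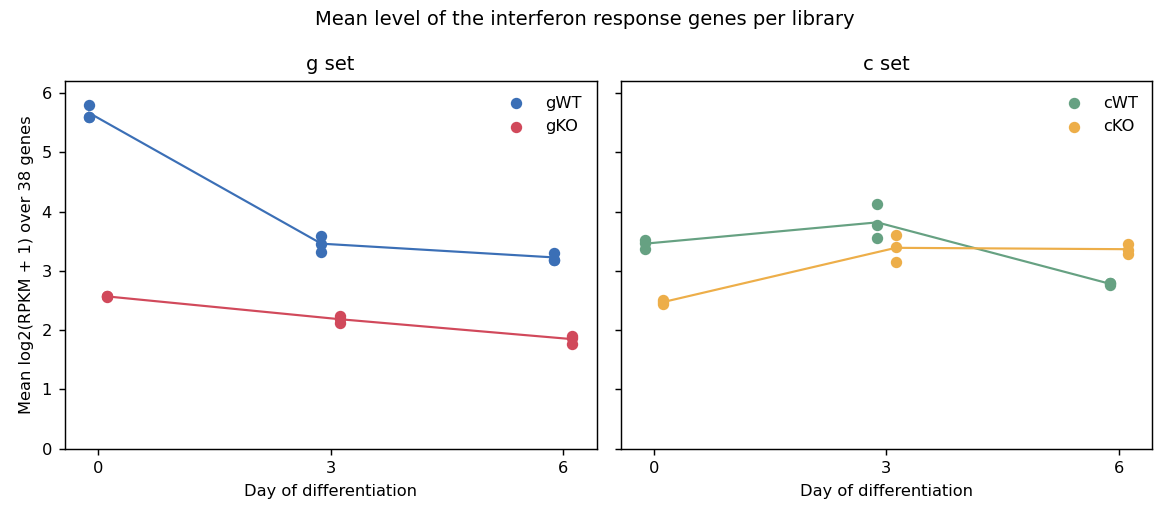
Mean log2(RPKM + 1) over the 38 genes (y axis) by day (x axis, WT and KO points set slightly apart), 1 point per library and lines through the means of 3 libraries. In the g set every gWT library lies above every gKO library on the same day, whereas in the c set the libraries labelled cKO lie below cWT on day 0, overlap with it on day 3 and lie above it on day 6.

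The genes also varied together between libraries of one group. On day 3 all 38 were highest in cWT replicate 3, whose mean over the genes was 4.13 against 3.56 and 3.77 log2 units in replicates 1 and 2. In cKO on day 3, 37 of 38 were highest in replicate 1, at 3.60 against 3.41 and 3.16. The range between the 3 libraries was thus 0.57 log2 units in cWT and 0.44 in cKO on day 3. The mean of all 11863 tested genes differed by 0.03 and 0.01. Scaling RPKM to library size tends to keep that mean level, so it cannot serve as a yardstick for the interferon genes. How many of all genes were highest in the same library was not counted. In the g set the widest range was 0.27, in gWT on day 3, where replicate 2 was highest for 28 genes.

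In the g set nearly the whole module was lower in gKO on each day. Day 0 showed the largest differences: 37 of 38 genes were lower in gKO, 1 was higher, and no gene had overlapping libraries. Overlap was counted for these genes alone, so no share over all genes stands beside it. Of all genes tested, 29.8% were called lower and 49.0% higher (limma, Benjamini-Hochberg adjusted p under 0.05 over 11863 genes). The median change was -2.96 in log2(RPKM + 1), with a range of -6.58 to 3.48, against 0.16 over all genes. Of the genes past the rule for naming, Ifit3 changed by -6.58 ± 0.22 (SE, adjusted p = 4.8e-21), Oasl2 by -5.56 ± 0.18 (SE, adjusted p = 2.4e-21) and Rsad2, which encodes viperin, by -5.17 ± 0.15 (SE, adjusted p = 7.5e-23). Fewer cells that express these genes and less of their RNA per cell cannot be told apart in such bulk samples.

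On day 3, 35 genes were lower in gKO, 2 were higher and 1 was not called, against 46.5% lower and 32.6% higher among all genes tested. The median was -1.25, beside -0.11 over all genes. Oasl2 changed by -3.16 ± 0.18 (SE, adjusted p = 1.6e-15), Oas1a by -2.81 ± 0.12 (SE, adjusted p = 2.4e-18) and Oas3 by -2.72 ± 0.15 (SE, adjusted p = 6.8e-16). On day 6, 36 genes were lower and 2 higher, against 25.3% and 24.7% of all genes, with a median of -1.50 beside 0 over all genes. The largest falls under the naming rule were those of Oasl2, -2.97 ± 0.18 (SE, adjusted p = 1.2e-13), Ifit3, -2.83 ± 0.22 (SE, adjusted p = 1.5e-11), and Ifi27l2a, -2.75 ± 0.15 (SE, adjusted p = 5.3e-15). Samd9l rose by 2.78 ± 0.12 (SE, adjusted p = 2.9e-17). In all, 34 genes were lower in gKO on all 3 days, as were 5.03% of all genes tested. The other 4 were Samd9l, Sp100, Tor3a and Isg20.

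By the labels, the difference in the c set changed sign over the days. Whether the day 6 labels, which the headers call corrected, are right was not tested. On day 0, 33 of 38 genes were lower in cKO, 1 was higher and 4 were not called, against 31.7% lower and 36.2% higher among all genes. The median was -1.06 (all genes, 0.03), and the largest falls under the naming rule were those of Oasl1, -2.00 ± 0.15 (SE, adjusted p = 8.5e-13), Ifi27l2a, -1.98 ± 0.15 (SE, adjusted p = 1.3e-12), and Oas3, -1.71 ± 0.15 (SE, adjusted p = 5.6e-11). With the data set as a term in the fit, 30 genes were lower and 0 higher, a fit that takes the data set difference from day 6, where both data sets occur in cWT.

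On day 3 the genes split. In cKO 21 were lower, 9 were higher and 8 were not called, where 44.2% and 32.8% of all genes were called lower and higher. Higher calls were thus less frequent, and lower calls more frequent, among the interferon genes than among all genes. Neither gap was tested. The median was -0.32 (all genes, -0.07), and for 19 of 38 genes the libraries of the groups overlapped, a count not made over all genes. The rises were led by Ifit2, 1.23 ± 0.16 (SE, adjusted p = 7.7e-08), Ifit3, 1.2 ± 0.22 (SE, adjusted p = 1.5e-05), and Ifit1, 0.62 ± 0.17 (SE, adjusted p = 0.0015), though the Ifit1 call was lost when only the groups compared were fitted or data set was a term. The falls were led by Oasl1, -2.32 ± 0.15 (SE, adjusted p = 2.4e-14), Ifi27l2a, -1.68 ± 0.15 (SE, adjusted p = 3.3e-11), and Bst2, -1.62 ± 0.13 (SE, adjusted p = 7.5e-12).

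On day 6, 29 genes were higher in the libraries labelled cKO, 1 was lower and 8 were not called. Among all genes 13.2% were called higher and 40.4% lower, that is, 24.7% of the called genes were higher, a share that became 52.1% after quantile scaling. The median was 0.53, beside -0.11 over all genes. Oasl2 changed by 1.51 ± 0.18 (SE, adjusted p = 9.5e-08), Ifi27l2a by 1.28 ± 0.15 (SE, adjusted p = 4.2e-08) and Ifit3 by 1.12 ± 0.22 (SE, adjusted p = 9.7e-05). The gene that was lower was Xaf1, which encodes a factor linked to cell death, at -0.49 ± 0.11 (SE, adjusted p = 4.6e-04). Within the 1 data set letter that both groups shared, 24 genes were higher and 1 lower, but cWT then had 1 library, which was assumed to vary like the other groups. Irf8 and the neutrophil genes also had the opposite direction on day 6 from days 0 and 3.

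The IFIT group holds Ifit1, Ifit2 and Ifit3, whose proteins bind foreign RNA and block its translation, together with Eif2ak2, the kinase PKR that halts translation on double-stranded RNA, and Isg20, an RNA exonuclease. On day 0 Ifit3 stood at 128, 179.5 and 138 RPKM in gWT, 0.714, 0.55 and 0.386 in gKO, 5.72, 5.22 and 3.26 in cWT and 0.255, 0.609 and 0.305 in cKO. On day 3 Ifit3 was at 4.33, 6.96 and 3.97 RPKM in gWT, 0.771, 0.696 and 0.507 in gKO, 2.23, 3.91 and 5.58 in cWT and 13.1, 10.9 and 6.53 in cKO. On day 6 Ifit3 measured 7.69, 9.57 and 8.18 RPKM in gWT, 0.179, 0.405 and 0.431 in gKO, 2.24, 2.23 and 2.62 in cWT and 6.04, 5.84 and 7.06 in cKO. Every gWT library was above every gKO library on each day, and the c groups did not overlap on any day but changed order after day 0. On day 0 Ifit2 stood at 79.8, 106 and 80.9 RPKM in gWT, 3.67, 3.48 and 4.03 in gKO, 4.83, 4.77 and 3.98 in cWT and 3.33, 3.66 and 3.53 in cKO. On day 3 Ifit2 was at 2.08, 2.95 and 1.65 RPKM in gWT, 0.969, 0.867 and 0.829 in gKO, 1.05, 2.22 and 3.21 in cWT and 7.41, 6.39 and 4.75 in cKO. On day 6 Ifit2 measured 4.96, 5.73 and 5.29 RPKM in gWT, 0.269, 0.339 and 0.299 in gKO, 1.73, 1.72 and 1.65 in cWT and 4.65, 4.67 and 5.05 in cKO. The Ifit2 level in gKO was lower on each later day. On day 0 its c libraries did not overlap, but the difference was -0.29 ± 0.16 (SE, adjusted p = 0.11), which did not pass. All 5 genes of the group were lower in gKO on days 0 and 6, and 4 on day 3, when Isg20 gave 0.09. In cKO 3 were lower on day 0, whereas on day 3 Ifit1, Ifit2, Ifit3 and Isg20 were higher and Eif2ak2 alone was lower, at -0.29 ± 0.09 (SE, adjusted p = 0.0048). Close copies exist for several of these genes (Ifit3 and Ifit3b, Oas1a and Oas1g), and how reads that match both were counted is not given in the sources used here, so their levels are uncertain in that respect.

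In the OAS family, Oas1a, Oas2 and Oas3 make the short oligoadenylates that switch on the nuclease RNase L. Oasl1 acts without that product and is known to hold back Irf7 translation in mice. Oasl2 is the other member of the family listed here. On day 0 Oas1a stood at 99.4, 117 and 104 RPKM in gWT, 8.28, 10.1 and 9.37 in gKO, 25.4, 23.1 and 25.6 in cWT and 10.9, 11.4 and 10.5 in cKO. On day 3 Oas1a was at 37.2, 39.2 and 33.7 RPKM in gWT, 4.01, 4.99 and 4.1 in gKO, 51.5, 44.5 and 63.9 in cWT and 21.6, 16.7 and 13.3 in cKO. On day 6 Oas1a measured 18.5, 21.9 and 18.7 RPKM in gWT, 3.91, 5.1 and 4.91 in gKO, 12.9, 13 and 14 in cWT and 22.1, 21.6 and 25.4 in cKO. No gWT library overlapped a gKO library, and cWT lay above cKO on days 0 and 3 and below it on day 6. All 5 genes were lower in gKO on each of the 3 days. In the c set all 5 were lower in cKO on days 0 and 3 and all 5 higher on day 6, with medians of -1.69, -1.29 and 1.10. On day 3 the family went the opposite way to Ifit1, Ifit2 and Ifit3: Oasl1 averaged 13.5 ± 3.86 RPKM in cWT and 1.89 ± 0.669 in cKO, while Ifit3 averaged 3.91 ± 1.67 and 10.2 ± 3.32.

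**Figure D3:**
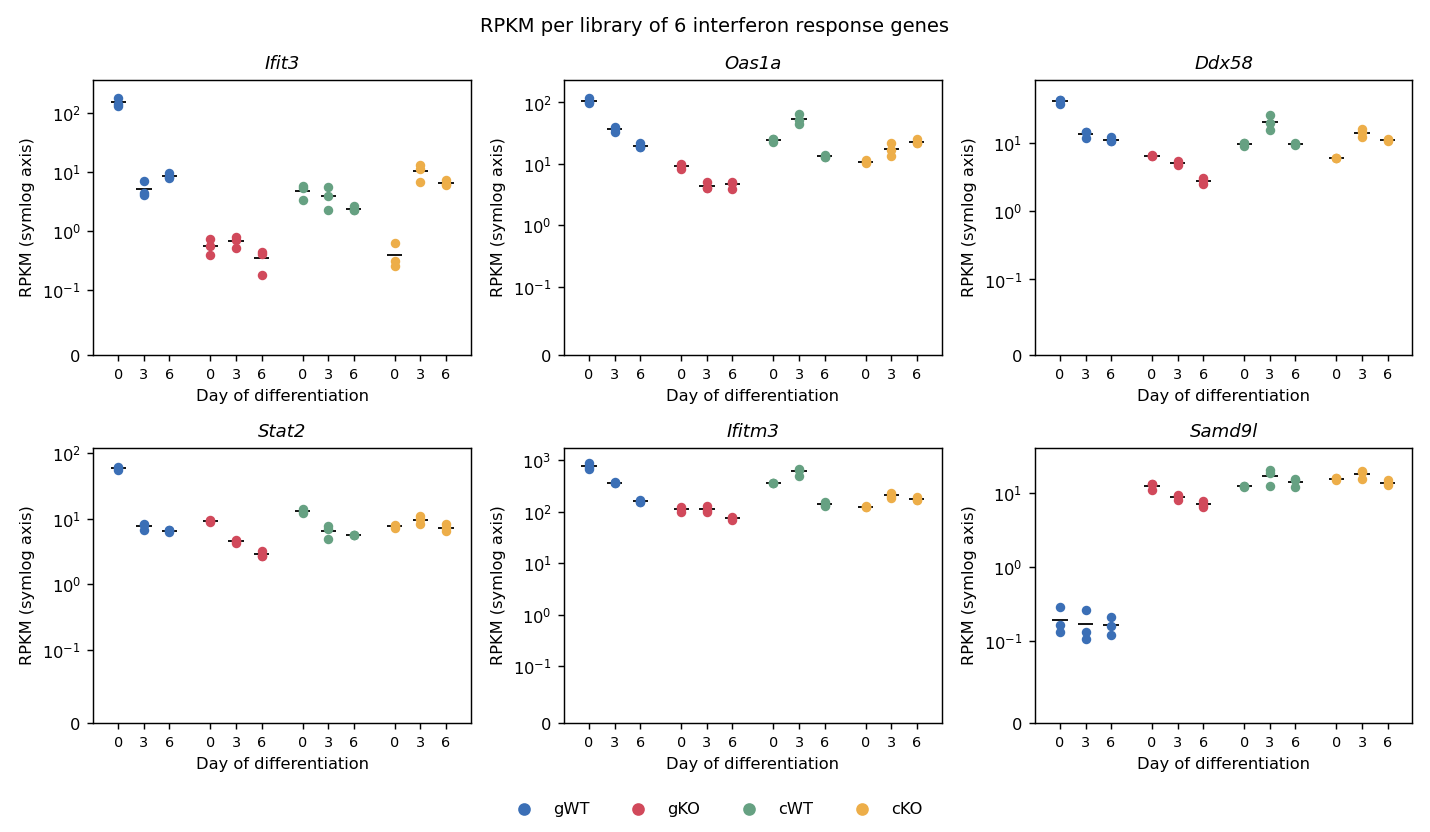
RPKM (y axis, symmetric log scale, linear below 0.1) of 6 genes by day (x axis) in each genotype, 1 point per library and a bar at the mean of 3. Ifit3, Oas1a, Ddx58, Stat2 and Ifitm3 peak in gWT on day 0, while Samd9l stays between 0.107 and 0.283 in gWT and at 6.44 or more in all other libraries.

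MX proteins are dynamin-like GTPases that trap viral nucleoproteins. On day 0 Mx1 stood at 30.01, 36.6 and 30.3 RPKM in gWT, 0.211, 0.261 and 0.141 in gKO, 4.72, 4.23 and 2.97 in cWT and 0.234, 0.226 and 0.206 in cKO. On day 3 Mx1 was at 1.02, 1.37 and 0.89 RPKM in gWT, 0.135, 0.121 and 0.0725 in gKO, 0.766, 1.18 and 1.75 in cWT and 1.05, 0.862 and 0.756 in cKO. On day 6 Mx1 measured 1.25, 1.64 and 1.23 RPKM in gWT, 0.0622, 0.101 and 0.0167 in gKO, 0.187, 0.261 and 0.206 in cWT and 1.04, 1.36 and 1.27 in cKO. The gKO libraries never exceeded 0.261 RPKM, and the c groups overlapped on day 3 alone. In cKO Mx1 averaged 0.222 ± 0.0146 RPKM on day 0 and 1.22 ± 0.162 on day 6. Mx1 and Mx2 were both lower in gKO on all 3 days. In cKO both were lower on day 0, at -2.01 ± 0.12 (SE, adjusted p = 7.4e-15) for Mx1, neither passed on day 3, and both were higher on day 6. Many laboratory strains are known to carry defective Mx genes, so these levels speak of RNA alone.

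Among the sensors of foreign nucleic acid are Ddx58 (RIG-I) and Ifih1 (MDA5), which detect viral RNA, Dhx58 (LGP2), which tunes them, and Zbp1, which senses Z-form nucleic acid and can trigger necroptosis. On day 0 Ddx58 stood at 42.5, 42.7 and 37.8 RPKM in gWT, 6.62, 6.59 and 6.51 in gKO, 9.99, 10.2 and 8.998 in cWT and 6.05, 6.16 and 6.03 in cKO. On day 3 Ddx58 was at 14.6, 14.6 and 11.8 RPKM in gWT, 5.13, 5.39 and 4.71 in gKO, 15.5, 19.8 and 25.6 in cWT and 16, 14.6 and 12.4 in cKO. On day 6 Ddx58 measured 10.7, 12.2 and 10.6 RPKM in gWT, 2.49, 2.89 and 3.11 in gKO, 10.05, 9.87 and 9.48 in cWT and 11, 10.6 and 11.4 in cKO. The Ddx58 groups of the g set did not overlap on any day, and those of the c set overlapped on day 3. On day 0 Ifih1 stood at 19.4, 19.3 and 17.2 RPKM in gWT, 3.5, 3.24 and 3.28 in gKO, 5.15, 5.03 and 4.45 in cWT and 2.79, 2.7 and 2.63 in cKO. On day 3 Ifih1 was at 5.06, 5.31 and 4.23 RPKM in gWT, 1.96, 1.97 and 1.76 in gKO, 3.71, 5.11 and 6.17 in cWT and 4.81, 4.58 and 3.89 in cKO. On day 6 Ifih1 measured 4.02, 3.91 and 3.74 RPKM in gWT, 1.04, 1.13 and 1.14 in gKO, 2.93, 2.9 and 2.74 in cWT and 3.65, 3.32 and 3.41 in cKO. Ifih1 followed Ddx58 in the g set, and on day 3 its c groups overlapped. All 4 sensors were lower in gKO on each day and in cKO on day 0. On day 3 Ddx58 and Dhx58 were lower in cKO, Zbp1 was higher, by 0.37 ± 0.16 (SE, adjusted p = 0.036), and Ifih1 gave -0.13 ± 0.09 (SE, adjusted p = 0.21). On day 6 Dhx58 and Zbp1 were higher, and Ddx58 and Ifih1 did not pass, at 0.15 and 0.21.

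ISG15 is a ubiquitin-like protein that is attached to other proteins by HERC6 in the mouse and removed by USP18, while TRIM25 and TRIM30A are ubiquitin ligases that act on sensor and NF-κB signalling. On day 0 Isg15 stood at 97.8, 142 and 112 RPKM in gWT, 3.02, 2.97 and 3.25 in gKO, 10.7, 10.3 and 8.67 in cWT and 2.43, 2.68 and 2.73 in cKO. On day 3 Isg15 was at 17.2, 22.1 and 15.7 RPKM in gWT, 2.37, 2.69 and 2.05 in gKO, 36.7, 29.6 and 53.9 in cWT and 18.5, 13.5 and 10.1 in cKO. On day 6 Isg15 measured 14.6, 15.9 and 14.4 RPKM in gWT, 1.18, 1.6 and 1.5 in gKO, 6.12, 6.84 and 8.1 in cWT and 12.5, 13.1 and 17.5 in cKO. The Isg15 groups were apart on all days in both sets, with cWT above cKO up to day 3 and below it on day 6. On day 0 Trim25 stood at 63.1, 61 and 60.04 RPKM in gWT, 19.4, 18.1 and 19.5 in gKO, 31.1, 32 and 30.6 in cWT and 21.8, 20.2 and 21.1 in cKO. On day 3 Trim25 was at 38.6, 37.8 and 36.4 RPKM in gWT, 22.5, 23.1 and 22.4 in gKO, 25.2, 31.2 and 31.8 in cWT and 24.8, 24.2 and 21.7 in cKO. On day 6 Trim25 measured 24.8, 25.6 and 24 RPKM in gWT, 19.4, 19.9 and 22 in gKO, 22.5, 23.3 and 21.6 in cWT and 24.8, 22.3 and 23.1 in cKO. Trim25 was lower in every gKO library than in any gWT library of the same day, and its c groups overlapped on day 6 alone. In gKO all 5 were lower on each day, Isg15 at -4.84 ± 0.18 (SE, adjusted p = 3.3e-20) on day 0, -2.51 on day 3 and -2.72 on day 6. In cKO all 5 were lower on day 0 and 4 on day 3, and Isg15, Usp18 and Trim30a were higher on day 6. Isg15 changed there by -1.59 ± 0.18 (SE, adjusted p = 6.2e-09) on day 0, -1.44 ± 0.18 (SE, adjusted p = 2.6e-08) on day 3 and 0.93 ± 0.18 (SE, adjusted p = 7.6e-05) on day 6.

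PARP9 and DTX3L form a complex that modifies histones and ubiquitin, and PARP14 is a mono-ADP-ribosyl transferase known to act on macrophage STAT signalling. On day 0 Parp14 stood at 68.7, 62.5 and 58.6 RPKM in gWT, 7.998, 6.99 and 8.16 in gKO, 18.7, 18.8 and 17.8 in cWT and 7.12, 7.38 and 7.45 in cKO. On day 3 Parp14 was at 16.4, 15.6 and 13.8 RPKM in gWT, 6.06, 6.27 and 5.4 in gKO, 11.7, 17.8 and 20.8 in cWT and 17.2, 16.7 and 13.1 in cKO. On day 6 Parp14 measured 11.5, 12.8 and 11.1 RPKM in gWT, 3.17, 3.34 and 4.15 in gKO, 10.1, 10.1 and 8.53 in cWT and 14.7, 11.6 and 11.5 in cKO. The c groups of Parp14 overlapped on day 3 and not on day 0 or 6. All 3 genes were lower in gKO on each day and in cKO on day 0, and all 3 were higher in cKO on day 6. On day 3 Parp9 alone was lower in cKO, at -0.42 ± 0.09 (SE, adjusted p = 9.6e-05), and Dtx3l and Parp14 gave 0.13 and -0.06. These genes lie side by side on chromosome 16 in RefSeq.

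Stat2 is the one member that carries the signal itself. On day 0 Stat2 stood at 58.9, 59.9 and 54.4 RPKM in gWT, 9.26, 8.88 and 9.44 in gKO, 13.8, 13.1 and 12.1 in cWT and 7.74, 8.06 and 7.25 in cKO. On day 3 Stat2 was at 8.14, 7.95 and 6.77 RPKM in gWT, 4.5, 4.8 and 4.28 in gKO, 4.93, 7.04 and 7.59 in cWT and 10.9, 9.73 and 8.16 in cKO. On day 6 Stat2 measured 6.22, 6.72 and 6.6 RPKM in gWT, 2.68, 2.68 and 3.22 in gKO, 5.57, 5.68 and 5.57 in cWT and 8.27, 6.38 and 7.19 in cKO. It was far above all other libraries in gWT on day 0, and cKO was below cWT on day 0 and above it later, without overlap. In gKO it was lower on all days, at -2.53 ± 0.10 (SE, adjusted p = 1.3e-19) on day 0. In cKO it changed by -0.69 ± 0.10 (SE, adjusted p = 6.3e-07) on day 0, 0.51 ± 0.10 (SE, adjusted p = 4.8e-05) on day 3 and 0.32 ± 0.10 (SE, adjusted p = 0.0087) on day 6.

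Membrane and nucleotide effectors are Ifitm3, which hinders viral entry, Bst2 (tetherin), which holds budding virions, Rsad2 (viperin), which makes a chain-terminating nucleotide, and Cmpk2, a nucleotide kinase encoded beside Rsad2. On day 0 Ifitm3 stood at 679, 877 and 729 RPKM in gWT, 99.6, 121 and 112 in gKO, 358, 358 and 366 in cWT and 120.4, 121 and 129 in cKO. On day 3 Ifitm3 was at 358, 375 and 358 RPKM in gWT, 106, 130.4 and 97.5 in gKO, 648, 500.5 and 674 in cWT and 231, 203 and 185 in cKO. On day 6 Ifitm3 measured 152, 168 and 153 RPKM in gWT, 74.3, 77.8 and 69.8 in gKO, 136, 131 and 154 in cWT and 168, 171 and 195 in cKO. Ifitm3 had the highest RPKM of all members in gWT on day 0, its second highest group mean was that of cWT on day 3, and its groups did not overlap on any day in either set. All 4 genes were lower in gKO on each day and in cKO on day 0, and all 4 were higher in cKO on day 6. On day 3 the group split, with Rsad2 and Cmpk2 higher in cKO by 0.79 ± 0.15 (SE, adjusted p = 2.3e-05) and 0.42 ± 0.13 (SE, adjusted p = 0.0036) and Bst2 and Ifitm3 lower by 1.62 and 1.55.

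Of the remaining 9 genes, Lgals3bp encodes a secreted glycoprotein, Rtp4 a chaperone of membrane receptors, Sp100 a nuclear body protein, Tor3a an ATPase of the endoplasmic reticulum, and Samd9l an antiviral factor that slows endosomes and translation. On day 0 Lgals3bp stood at 362, 391 and 364 RPKM in gWT, 20.9, 23.7 and 23.3 in gKO, 67.7, 65.9 and 63.4 in cWT and 24.1, 24.2 and 22.4 in cKO. On day 3 Lgals3bp was at 198, 199 and 183 RPKM in gWT, 55.1, 56.5 and 51.6 in gKO, 179.5, 218 and 231 in cWT and 111, 101 and 84.6 in cKO. On day 6 Lgals3bp measured 115, 129.7 and 112 RPKM in gWT, 41.1, 47.7 and 47.1 in gKO, 102, 101 and 97.5 in cWT and 163, 130.2 and 166 in cKO. Lgals3bp rose from day 0 to day 3 in gKO, cWT and cKO and fell in gWT, and no WT and KO groups of one set and day overlapped. In gKO 8 of the 9 were lower on day 0 and 7 on days 3 and 6. In cKO 6 were lower on day 0, 6 lower and Sp100 higher on day 3, and 6 higher on day 6. Ifi44, whose product hinders viral replication, averaged 0.0219 ± 0.0115 RPKM in gKO against 16.2 ± 2.82 in gWT on day 0, and Ifi27l2a averaged 6.47 ± 0.92 against 191 ± 23.1. For Ifi35 the change on day 0 was -1.44 ± 0.08 (SE, adjusted p = 8.0e-16) and for Xaf1 -1.98 ± 0.11 (SE, adjusted p = 3.8e-16).

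Samd9l, Sp100 and Tor3a broke the pattern in the g set. On day 0 Samd9l stood at 0.162, 0.283 and 0.13 RPKM in gWT, 12.8, 11 and 13.1 in gKO, 11.9, 12.2 and 12.2 in cWT and 14.9, 15.6 and 15.8 in cKO. On day 3 Samd9l was at 0.262, 0.13 and 0.107 RPKM in gWT, 9.05, 9.27 and 7.83 in gKO, 12.2, 18.1 and 20.2 in cWT and 19.6, 18.7 and 15.5 in cKO. On day 6 Samd9l measured 0.206, 0.158 and 0.12 RPKM in gWT, 6.85, 6.44 and 7.67 in gKO, 14.8, 15.3 and 11.8 in cWT and 14.9, 12.5 and 13.3 in cKO. All 9 gWT libraries were under 0.3 RPKM and all 27 others above 6. In gKO Samd9l was higher by 3.48 ± 0.12 (SE, adjusted p = 2.8e-21) on day 0, 3.06 on day 3 and 2.78 on day 6. In cKO it was higher by 0.33 ± 0.12 (SE, adjusted p = 0.015) on day 0, a call lost with a pseudocount of 0.1 and at 0.00 with data set as a term, and it did not pass on day 3 or 6. Sp100 was higher in gKO on day 3, by 0.23 ± 0.10 (SE, adjusted p = 0.037), and lower on days 0 and 6. That rise was lost without the filter on low values, in the fit of those groups alone and without gWT replicate 3 (0.13), gKO replicate 1 (0.18) or gKO replicate 2 (0.20). Tor3a was higher in gKO on day 6, by 0.30 ± 0.05 (SE, adjusted p = 3.0e-05), after falls of 1.77 and 0.86 on days 0 and 3.

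Set against each other, the g and c sets differed in the knockout difference, taken with its sign, for 38 genes on day 0, 30 on day 3 and 37 on day 6. The test does not separate size from direction, so genes that changed in opposite directions are called too. Which set had the larger change was counted for these genes alone and was not tested. On day 0 the change was larger in size in the g set for 38 of 38 genes. The difference itself, cKO minus cWT less gKO minus gWT, was called higher for 37 genes and lower for 1, against 17.5% and 39.8% of all genes, with a median of 1.95 beside -0.14. Higher calls made up 30.5% of all called genes, and 44.3% after quantile scaling. The 33 genes called lower in both sets, against 23.2% of all genes, all had a called difference, against 11.5%. Ifit3 differed by 4.56 ± 0.31 (SE, adjusted p = 1.1e-12) and Ifit2 by 3.95 ± 0.23 (SE, adjusted p = 2.4e-14). Ifit3 averaged 149 ± 27.2 RPKM in gWT and 4.73 ± 1.3 in cWT but 0.55 ± 0.164 in gKO and 0.39 ± 0.191 in cKO.

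On day 3 the change was larger in the g set for 35 genes, and the difference was called higher for 29 and lower for 1, against 31.0% and 23.9% of all genes. The median was 0.78, beside 0.04. On that day 7 genes were called lower in gKO and higher in cKO, all with a called difference (Cmpk2, Ifit1, Ifit2, Ifit3, Rsad2, Stat2 and Zbp1), against 2.87% of all genes. The lower calls shared by both sets were 21, against 35.5% of all genes, of which 15 had a called difference, against 17.4%. On day 6 the change was larger in the g set for 37 genes, and the difference was higher for 36 and lower for 1, against 22.0% and 38.6% of all genes. Among all called genes 36.3% were higher, and 48.6% after quantile scaling. The median was 1.96, beside -0.11. By the day 6 labels, 28 genes were called lower in gKO and higher in cKO, all with a called difference, against 8.31% of all genes. Oasl2 differed by 4.47 ± 0.26 (SE, adjusted p = 1.9e-14). Data set and sex-linked genes separate the g from the c libraries on every day, so a difference between sets cannot be told apart from these.

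**Figure D4:**
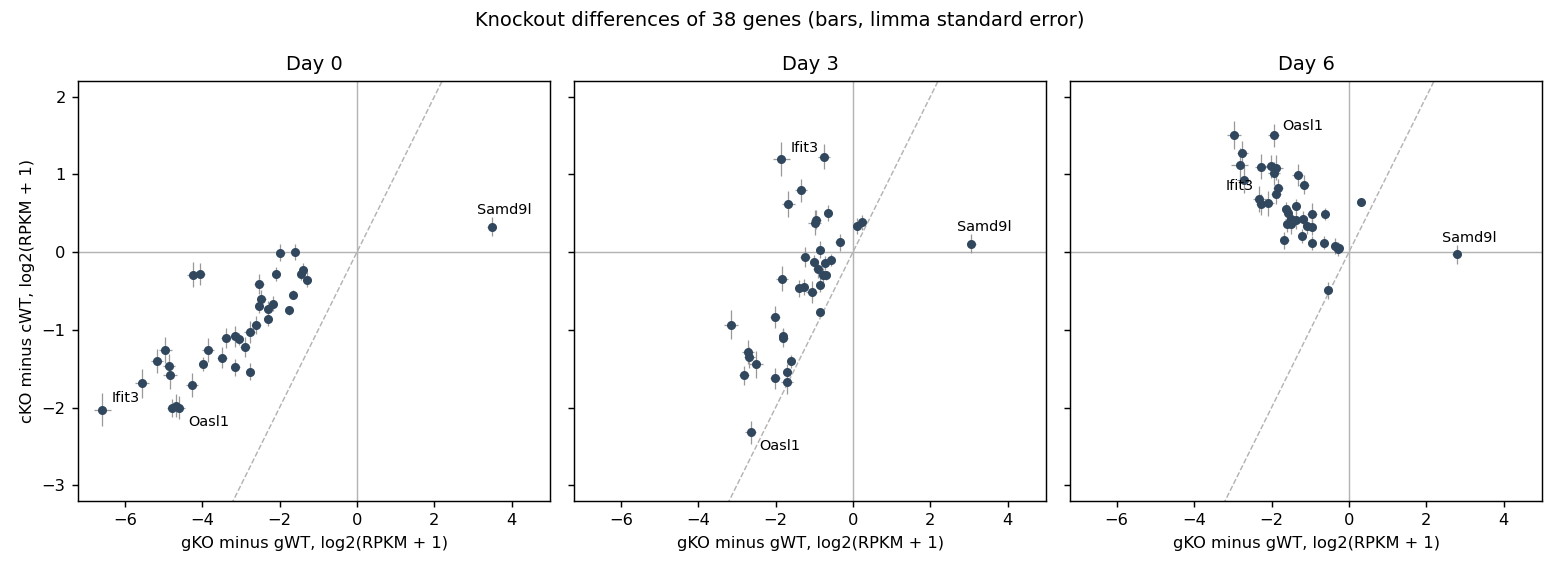
Knockout difference in log2(RPKM + 1) of each of the 38 genes in the g set (x axis) and in the c set (y axis) on days 0, 3 and 6, with bars of 1 limma standard error and a dashed line of equal change. On day 0, 37 genes lie in the lower left with larger changes in g, on day 3 the points straddle the horizontal line, and on day 6, 35 lie in the upper left.

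Between the days the module fell early in gWT and rose early in cKO. From day 0 to day 3 in gWT, 37 genes fell and 0 rose, against 35.0% and 48.4% of all genes, with a median of -1.99 (all genes, 0.13). Ifit2 changed by -4.81 ± 0.16 (SE, adjusted p = 1.7e-21) and Ifit3 by -4.64 ± 0.22 (SE, adjusted p = 1.1e-17), and Samd9l did not pass. In gKO 25 fell and 3 rose (Lgals3bp, Tor3a and Trim25), against 53.9% and 28.6%, with a median of -0.35 beside -0.23, close to all genes, and after quantile scaling 14 fell and 3 rose. In cWT 22 rose and 9 fell, against 39.8% and 38.9%, with Isg15 up by 1.88 ± 0.18 (SE, adjusted p = 1.1e-10) and Sp100 down, at -1.18 ± 0.10 (SE, adjusted p = 6.8e-12). In cKO 32 rose and 1 fell, against 30.2% and 50.2%, with a median of 0.70 beside -0.16. Ifit3 led there, by 2.97 ± 0.22 (SE, adjusted p = 4.5e-13), and Sp100 was the gene that fell.

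From day 3 to day 6 in gWT 18 fell and 5 rose, against 47.9% and 27.7% of all genes, a share of falls near that of all genes. The 5 were Ifit2, Ifit3, Zbp1, Ifi27l2a and Rsad2, with Ifit2 at 0.99 ± 0.16 (SE, adjusted p = 2.6e-06). After quantile scaling 50.4% of all called genes were higher in this step, from 36.6%. In gKO 21 fell and Tor3a rose, against 33.3% and 26.0%, and the higher share of all calls went from 43.9% to 55.0% under that scaling. In cWT 34 fell and 0 rose, against 42.8% and 28.5%, with Oasl1 at -2.94 ± 0.15 (SE, adjusted p = 5.0e-16) and Isg15 at -2.32 ± 0.18 (SE, adjusted p = 4.2e-12). In cKO 13 fell and 10 rose, against 36.7% and 20.4%. For that last step the direction was not stable: without cKO replicate 1 of day 3, 8 fell and 10 rose, after quantile scaling 10 fell and 11 rose (54.6% of all called genes higher, from 35.7%), and with data set as a term 4 fell and 3 rose. Both c steps join day 3 libraries, where Irf8 was higher in cKO, with day 6 libraries, where it was lower. By the letter reading, the cKO libraries of day 3 were all of one data set and those of day 6 all of another. Day and data set thus cannot be told apart in that cKO step. In cWT all day 3 libraries were of one data set, and 2 of the 3 day 6 libraries were of another, so the cWT step is partly mixed with data set too.

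Genes that act before and beside the module were taken from a list. None of 18 type I interferon genes passed the filter, nor did any of the 3 type II and III genes in the table. Ifnb1, which encodes interferon beta, was listed at 0.105, 0.341 and 0.0855 RPKM in gWT on day 0, at 0 in all 9 gKO libraries and in the 6 cKO libraries of days 0 and 3, and at 0.0315, 0.0449 and 0.0195 in cKO on day 6. The Ifnb1 values of cWT and of gWT on days 3 and 6 are not listed here, so no difference between genotypes is read from these. Such values stand for few reads: 1 RPKM over 1 kilobase equals 34.5 alignments in the smallest library.

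Both genes of the type I interferon receptor were expressed in all groups. Ifnar1 averaged 36.6 ± 2.78 RPKM in gWT, 26.8 ± 0.917 in gKO, 45 ± 1.71 in cWT and 26.9 ± 0.255 in cKO on day 0. Ifnar2 averaged 64.4 ± 0.889, 39.1 ± 0.247, 62.2 ± 1.09 and 34.4 ± 0.541 in the same order. Of the 4 receptor genes 3 were lower in each knockout on day 0 (all genes, 29.8% in gKO and 31.7% in cKO), among them Ifnar2, at -0.71 ± 0.05 (SE, adjusted p = 1.3e-14) in gKO and -0.84 ± 0.05 (SE, adjusted p = 9.9e-16) in cKO. The difference between the sets on day 0 was called for 2 of the 4, 1 in each direction. Of all genes 17.5% were called higher and 39.8% lower in that comparison, so nothing is read from this count.

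Among 7 kinases and factors, 5 were lower and 1 higher in gKO on day 0, and 5 lower and 0 higher in cKO, where 29.8% and 31.7% of all genes were lower and 49.0% and 36.2% higher. On day 0 Irf7 stood at 198, 275 and 222 RPKM in gWT, 4.59, 4.89 and 4.86 in gKO, 19.1, 18.3 and 15.8 in cWT and 3.81, 3.9 and 3.69 in cKO. On day 3 Irf7 was at 26.8, 31.8 and 23.7 RPKM in gWT, 3.66, 3.46 and 2.92 in gKO, 36.6, 42.7 and 68 in cWT and 23.8, 17.6 and 12.7 in cKO. On day 6 Irf7 measured 13.9, 18.8 and 14.7 RPKM in gWT, 1.13, 1.61 and 1.97 in gKO, 6.58, 7.83 and 7.85 in cWT and 28.2, 19.3 and 32 in cKO. Irf7, the factor that amplifies interferon production, thus followed the module: it was lower in gKO on all days, and by the labels lower, lower and higher in cKO. Its change was -5.32 ± 0.20 (SE, adjusted p = 8.3e-20) in gKO on day 0, -2.70 on day 3 and -2.71 on day 6, and -1.96 ± 0.20 (SE, adjusted p = 1.0e-09), -1.39 ± 0.20 (SE, adjusted p = 3.8e-07) and 1.68 ± 0.20 (SE, adjusted p = 6.6e-08) in cKO. Irf9, the DNA-binding partner of STAT2, was lower in both knockouts on days 0 and 3 and higher in cKO on day 6, with a day 0 change of -1.95 ± 0.09 (SE, adjusted p = 6.2e-18) in gKO and -1.24 ± 0.09 (SE, adjusted p = 7.8e-13) in cKO.

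**Figure D5:**
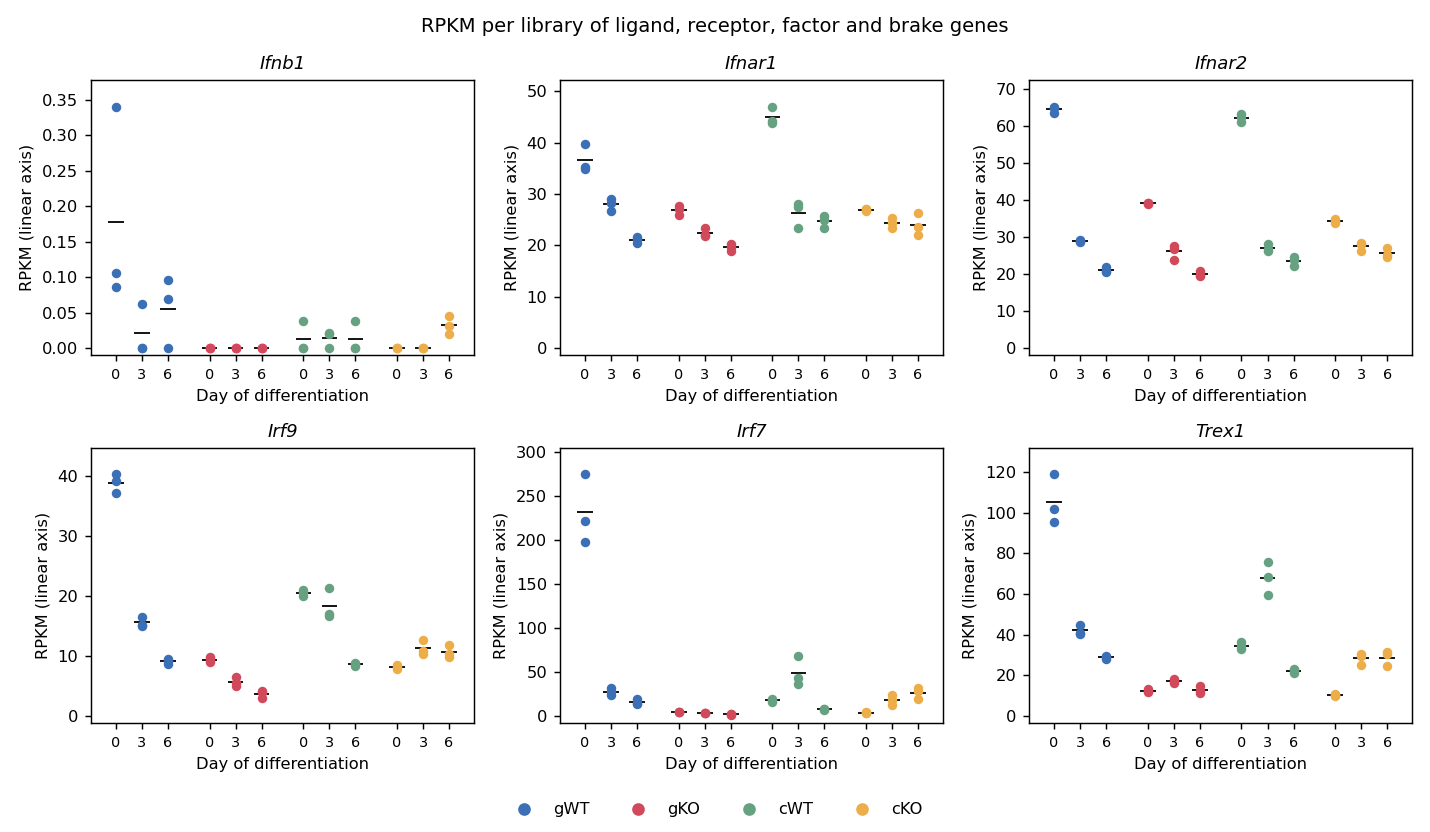
RPKM (y axis, linear, separate scales) of interferon beta, both receptor chains, the factors Irf9 and Irf7 and the nuclease Trex1 by day (x axis) in each genotype, 1 point per library and a bar at the mean of 3. Irf7, Irf9 and Trex1 peak in gWT on day 0, the receptor genes stay at 18.9 or above in every library, and Ifnb1 stays at 0.341 or below.

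Of 5 genes of cytosolic nucleic acid signalling, 3 were lower and 2 higher in each knockout on day 0, a split from which nothing is read beside 29.8% lower and 49.0% higher of all genes in gKO and 31.7% and 36.2% in cKO. Tmem173 (STING) was lower, at -1.13 ± 0.08 (SE, adjusted p = 4.5e-14) in gKO and -1.07 ± 0.08 (SE, adjusted p = 5.2e-13) in cKO, while Mb21d1 (cGAS) was higher by 0.97 ± 0.07 (SE, adjusted p = 4.2e-14) and 0.58 ± 0.07 (SE, adjusted p = 7.0e-09). Of 6 brakes on the response, 5 were lower and 1 higher in gKO and 4 lower in cKO on day 0, beside the same shares of all genes. Trex1, a nuclease that clears cytosolic DNA, was lower, at -3.00 ± 0.09 (SE, adjusted p = 7.0e-22) in gKO and -1.63 ± 0.09 (SE, adjusted p = 4.7e-15) in cKO, and higher in cKO on day 6 by 0.34 ± 0.09 (SE, adjusted p = 0.0032).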

How the data were processed

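RPKM values per gene were deposited by the authors as 1 table of 24950 genes and 36 libraries of RNA-seq on total RNA. TopHat mapping, RPKM from Partek and the joining of 3 data sets are recorded per the file headers. The submitters' processing notes name CASAVA 1.8.4, bcl2fastq 2.17.1, TopHat2 2.1.0 and build mm9. How multi-mapping reads and strand were treated is not given in the sources used here. Alignment totals per library (other values) were deposited by the authors and ranged from 34510144 to 92548145, and intervals for single values were not derived because RPKM keeps no counts. The totals limit the precision of low values.

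Values were taken as log2(RPKM + 1), so changes of low genes are understated, and genes at RPKM of 1 or more in at least 3 libraries were kept (11863). All 12 group means were fitted together in limma 3.58.1 (R 4.3.3, trend and robust), and p-values were adjusted over all genes tested by Benjamini-Hochberg, with calls under 0.05. Figures were drawn in matplotlib 3.10.9, and tables were made in numpy 2.4.6 and pandas 2.3.3 under Python 3.11.15. Libraries of one group correlated at 0.992 to 0.999, and 0 pairs were identical. Same-numbered libraries deviated together (every correlation over 0.1) in 2 of 14 comparisons, gKO against gWT on day 3 (0.115 to 0.222) and gWT day 3 against day 0 (0.142 to 0.348), from the data and not from a stated pairing. On simulated data over 11863 genes that stood for gKO against gWT on day 0, the fit called 30 of 50 genes changed 1.2-fold, 48 of 50 changed 1.5-fold and all 50 changed 2-fold, and 13 of 11663 unchanged genes.

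The members, gene lists and tests were chosen with earlier results of these data known. Changes were named for up to 3 rises and 3 falls per knockout comparison among genes averaging 5 RPKM or more in 1 group compared, and for Isg15, Irf7 and Irf8, and another gene of the pathway list is not reported here. Values in every library were given for the most abundant gene of each role and for Ifit2, Mx1 and Ifih1. The other changes given by role, day or pathway, and the library values of Isg15, Samd9l, Irf7 and Ifnb1, were chosen after their values were seen. Alternatives were another pseudocount, 2 other filters, quantile scaling, separate fits, the replicate block, data set (read from the first letter of the library name) as a term and leaving out each library.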

Additional observations from a re-analysis of the deposited data

Results flagged for a closer look

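The knockout difference of the interferon genes differed between the c set and the g set by the test of the difference itself (limma, adjusted over all genes). On day 0 it did so for 38 of 38 genes, with values in log2(RPKM + 1) of 4.56 for Ifit3, 3.95 for Ifit2, 3.87 for Oasl2, 3.25 for Isg15 and -3.15 for Samd9l. On day 3 it did so for 30 genes, with 3.04 for Ifit3, 2.29 for Ifit1, 2.23 for Oasl2, 1.07 for Isg15 and -2.95 for Samd9l. On day 6 it did so for 37 genes, with 4.47 for Oasl2, 4.03 for Ifi27l2a, 3.95 for Ifit3, 3.65 for Isg15 and -2.81 for Samd9l. Among all genes tested, the difference was called higher for 17.5% and lower for 39.8% on day 0. The same shares were 31.0% and 23.9% on day 3 and 22.0% and 38.6% on day 6. A called difference is therefore common among all genes. The sets also differ in data set and in sex-linked genes, and these cannot be told apart from the set.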

How the results depend on the processing

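For the 17 counts of called genes, 229 of 233 values under the alternatives stayed within 1.5 times the count and kept its direction. In gKO from day 3 against day 0, quantile scaling left 17 calls in place of 28. In cKO from day 6 against day 3 the 23 calls became 21 with quantile scaling and turned towards rises, became 7 with data set as a term, and ranged from 18 to 23 with a library left out, where the 18 (without replicate 1 of day 3) also turned towards rises; the cause was not tested. Of 981 values for 67 results on single genes, 971 kept their call, 9 lost it, 1 gained it and 0 reversed. With the replicate block the counts were between 20 and 38, for example 38 for gKO against gWT on day 0 and 20 in place of 22 for gKO day 6 against day 3, and none moved by over 1.5 times. Quantile scaling moved the median of all genes by over 0.1 in 7 of 17 comparisons, by at most 0.148. RPKM keeps no read counts, so low levels such as those of Ifnb1, Mx1 or Ifi44 in gKO have no counting interval here.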

Other observations

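Several of the interferon genes are neighbours in RefSeq. Of the 36 genes matched there, which lie on 14 chromosomes, 11 form 6 neighbouring pairs: Rsad2 and Cmpk2 on chromosome 12, Parp14 and Dtx3l as well as Dtx3l and Parp9 on chromosome 16, Ifit2 and Ifit3 on chromosome 19, and Oasl1 and Oasl2 as well as Oas2 and Oas3 on chromosome 5. On day 3 in the c set Rsad2 and Cmpk2 were both higher in cKO, as were Ifit2 and Ifit3, while Oasl1, Oasl2, Oas2 and Oas3 were all lower. Parp9 was lower there and its neighbour Dtx3l did not pass.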
